A study of Schizosaccharomyces pombe with 36 samples.

Results

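The genes described here are 7 fission yeast genes that build or remodel the glucan of the cell wall, chosen by their systematic identifiers, among the 7268 Schizosaccharomyces pombe genes counted. They are bgs1 (SPBC19G7.05c), bgs3 (SPAC19B12.03), bgs4 (SPCC1840.02c), ags1 (SPCC1281.01), gas1 (SPAC19B12.02c), exg1 (SPBC1105.05) and psu1 (SPAC1002.13c). All 7 identifiers were in the count files, and all 7 passed the filter on low counts in every fit. The name cell wall glucan synthesis genes fits bgs1, bgs3, bgs4 and ags1, which encode glucan synthases, whereas gas1, exg1 and psu1 encode secreted or wall-bound proteins that act on, or are associated with, glucan already made. The rule for the choice used no measured value, although earlier results of these data were known when it was made.

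The wall of S. pombe is made mainly of beta-glucan and alpha-glucan with an outer layer of galactomannoprotein. Beta-glucan is made at the plasma membrane by the Bgs synthases, whose activity depends on the GTPase Rho1, and alpha-glucan is made by Ags1. The new chains are then elongated, linked and trimmed outside the membrane, and the balance of synthesis and hydrolysis allows the cell to grow at its tips, to build the division septum and to open it again.

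RNA was sequenced from slr1 knockout cells (strain yMAB001) and from WT cells (strain yAS99), and Slr1 is the fission yeast protein of the LARP1 family. Each genotype was represented by 1 strain, whose further alleles the labels do not state, and by 3 cultures, which the labels describe as biological replicates begun from single colonies. Cells were streaked on YES plates at 32 °C and grown in 10 mL of liquid medium, and both genotypes received 5 mM 4-thiouracil (4tU), a uracil analogue that cells build into new RNA. Each culture gave 1 library labelled steady state and 5 libraries of labelled RNA at the time points 5, 20, 50, 105 and 125, which makes 36 libraries in 12 groups of 3. The labels give 1 text on the purification of 4tU-containing RNA for all libraries. The labels state no unit for these numbers.

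The S. pombe counts ran from 921427 to 6517092 per library, and the counts of a single wall gene in a single library ran from 150 (bgs1) to 27646 (gas1). Transcripts of slr1, the deleted gene, stood at 3.26 to 17.2 CPM (the TMM-scaled share of a library's S. pombe counts) in the labelled libraries of the knockout, against 111 to 249 CPM in those of WT. At steady state slr1 stood at 13.5 to 25.8 CPM in the knockout, against 111 to 143 CPM in WT. The files also hold human and fly counts, whose role is not given. At steady state the ratio of fly to human counts was 1.85 to 2.15 in knockout cultures 1 and 3 and WT culture 3, against 0.990 to 1.07 in knockout culture 2 and WT cultures 1 and 2. These sets of 3 cultures are called set B and set A below.

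Per kilobase of gene, gas1 had the highest level of the 7 genes at steady state, with 794 ± 579.9 CPM per kb in the knockout and 714 ± 280.1 CPM per kb in WT (SD, n = 3 each). Gas1 is a beta-glucanosyltransferase that lengthens beta-glucan chains in the wall. Next came exg1, which encodes a beta-glucanase, at 263 ± 15.4 and 257 ± 100.3 CPM per kb in knockout and WT, and psu1, which encodes a wall protein of the SUN family, at 235 ± 131 and 230.4 ± 43.9 CPM per kb. These neighbours, exg1 and psu1, did not differ beyond their spread. The synthases were lower, with bgs4 at 77.9 ± 17.4 CPM per kb in the knockout and 73.0 ± 16.0 in WT. The other synthases, bgs3 (41.0 ± 13.1 and 38.2 ± 9.05 CPM per kb in knockout and WT), ags1 (39.9 ± 8.55 and 37.6 ± 7.02) and bgs1 (36.3 ± 20.5 and 35.5 ± 8.35), were not separated beyond their spread. Lengths were taken from the ASM294v3 annotation, introns included.

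The first comparison asked how the share of each transcript in newly labelled RNA at time point 5 differed from its share at steady state. All 7 wall genes were higher at labelled 5 than at steady state in 6 of 6 cultures, and by 1.67-fold (gas1) to 2.62-fold (bgs1) in the fitted knockout means and 1.75-fold (exg1) to 2.64-fold (psu1) in WT. By edgeR's quasi-likelihood test with Benjamini-Hochberg adjustment, 5 of 7 passed in the knockout, where 13.5% of all 5823 genes tested were called higher and 26.7% in either direction. In WT 5 of 7 passed, where 10.6% were called higher and 21.8% in either direction. In this fit, which did not pair the libraries of a culture, the same genes passed in both genotypes: the 4 synthases and psu1. As these are shares of each library, a higher share does not show more RNA per cell. The labels do not say how preparation differed between labelled and steady-state libraries, so its part in the contrast cannot be told apart.

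**Figure D1:**
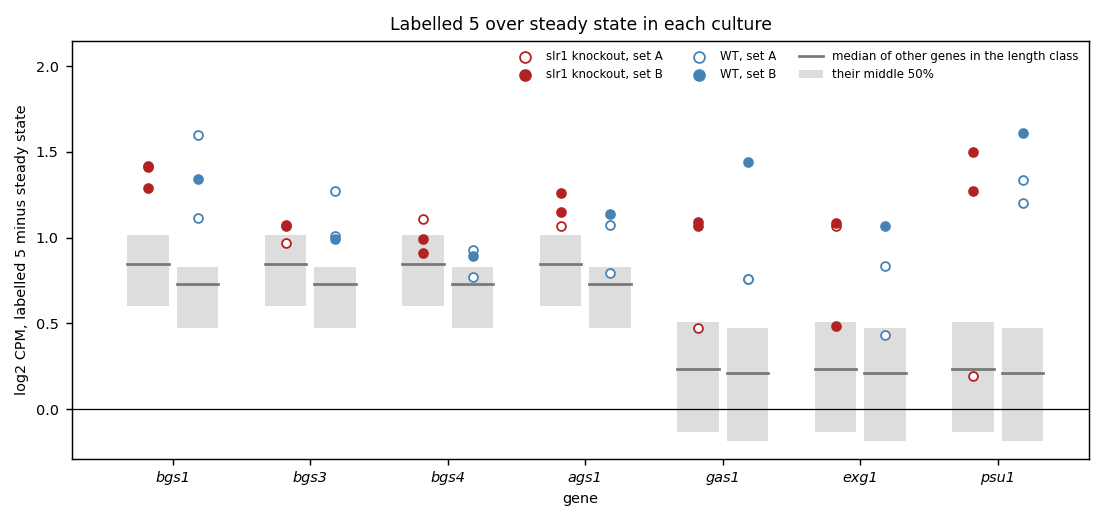
Log2 ratio of labelled 5 to steady state for each of the 7 wall genes. Each point is 1 culture, with knockout cultures left of WT cultures, and every point lies above 0. Open points are cultures of set A and filled points cultures of set B, and the grey line and box are the median and quartiles of the other genes in the same class of gene length.

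Bgs1 makes the linear beta-glucan of the primary septum, and its gene had the widest spread between cultures among the synthases. In the knockout, bgs1 stood at 374, 1033 and 433 CPM at labelled 5, against 153, 386 and 162 CPM at steady state in cultures 1, 2 and 3. In WT it stood at 861, 489 and 449 CPM at labelled 5, against 284, 225 and 177 CPM at steady state. The fractions did not overlap in WT and overlapped slightly in the knockout, where culture 2 was the highest in both fractions. The log2 fold change was 1.39 in the knockout (SE 0.46, adjusted p = 0.025) and 1.39 in WT (SE 0.46, adjusted p = 0.0295).

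Bgs3 is a beta-glucan synthase needed for growth. It had 502, 765 and 476 CPM at labelled 5 in the knockout, against 239, 391 and 226 CPM at steady state. In WT it had 663, 653 and 397 CPM at labelled 5, against 274, 324 and 199 CPM at steady state. The fractions overlapped in neither genotype, and culture 3 of WT was the lowest in both fractions. On the log2 scale bgs3 rose by 1.03 in the knockout (adjusted p = 0.0346) and 1.10 in WT (adjusted p = 0.0284).

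Bgs4 makes the major branched beta-glucan of the wall and of the secondary septum. Its transcript had 1036, 1642 and 1015 CPM at labelled 5 in the knockout, against 550.1, 762 and 510.4 CPM at steady state. In WT it had 1054, 1192 and 839.8 CPM at labelled 5, against 555, 699.7 and 452 CPM at steady state. The fractions did not overlap in either genotype. The rise of bgs4 was 1.02 on the log2 scale in the knockout (adjusted p = 0.00865) and 0.85 in WT (adjusted p = 0.0294).

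Ags1, the alpha-glucan synthase of growing cells, had the smallest spread of the 7 genes between cultures at steady state. Its transcript had 678, 904 and 722 CPM at labelled 5 in the knockout, against 305, 431 and 301 CPM at steady state. In WT it had 575, 681 and 683 CPM at labelled 5, against 273, 392 and 311 CPM at steady state. All 6 labelled 5 libraries lay above all 6 steady-state libraries. For ags1 the log2 fold change was 1.15 in the knockout (adjusted p = 0.0012) and 0.99 in WT (adjusted p = 0.00485), the smallest adjusted p of the 7 genes in the knockout.

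Of the genes for remodelling proteins, psu1 passed the test. It had 786, 889 and 904 CPM at labelled 5 in the knockout, against 278, 778 and 374 CPM at steady state, so that knockout culture 2 differed little between the fractions (log2 ratio 0.19) and the libraries of the groups lay just apart. In WT it had 1206, 921 and 1571 CPM at labelled 5, against 523, 365 and 515 CPM at steady state, with no overlap. The log2 fold change was 0.85 in the knockout (adjusted p = 0.0436) and 1.40 in WT (adjusted p = 0.00208).

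The glucanosyltransferase gene gas1 did not pass in this unpaired fit. It had 1928, 4381 and 2269.7 CPM at labelled 5 in the knockout, against 905, 3159.7 and 1082 CPM at steady state, and the groups overlapped because culture 2 was high in both. In WT it had 3546, 2771 and 2430.3 CPM at labelled 5, against 2096, 1639 and 896 CPM at steady state, without overlap. Its fitted log2 fold change was 0.74 in the knockout (adjusted p = 0.285) and 0.92 in WT (adjusted p = 0.194). With culture as a block in edgeR, gas1 passed in the knockout (adjusted p = 2.42e-05) and in WT (adjusted p = 6.31e-06).

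The glucanase gene exg1 did not pass in the unpaired fit either. It had 772, 1037 and 1075 CPM at labelled 5 in the knockout, against 552, 494 and 506 CPM at steady state, without overlap. In WT it had 543, 1306 and 801 CPM at labelled 5, against 402, 733 and 382 CPM at steady state, and WT culture 2 was the highest in both fractions, which made the groups overlap. The log2 fold change was 0.89 in the knockout (adjusted p = 0.0635) and 0.80 in WT (adjusted p = 0.105). With culture as a block in edgeR, exg1 passed in the knockout (adjusted p = 5.95e-04) and in WT (adjusted p = 0.00171). In all, the libraries of the fractions did not overlap for 5 of 7 genes in the knockout, against 23.6% of all genes, and for 6 of 7 in WT, against 17.2%.

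Libraries of the same culture varied together, and with culture as a block all 7 genes passed in both genotypes, where 29.6% of all genes were called higher in the knockout and 28.5% in WT. With the block, gas1 and exg1 were therefore also called, and all 7 genes kept their call when any 1 culture was left out. Without the block, the count depended on single cultures: it was 1 of 7 in the knockout without knockout culture 1 or culture 3, and in WT it was 0 without WT culture 3, 2 without WT culture 1 and 3 without WT culture 2. The calls over all genes moved as well with 1 culture left out. They ran from 487 to 1693 in the knockout, against 1554 with every culture, and from 476 to 1381 in WT, against 1268. When libraries were scaled to their human counts in place of TMM, none of the 7 passed in either genotype without the block, where 0.137% of all genes in the knockout and 0% in WT were called higher. With the block 4 passed in the knockout and 0 in WT, where 3.4% and 0.0343% of all genes were called higher. That scaling moved the median of all genes to 0.10 in the knockout and −0.61 in WT, against 0.04 and 0.06 with TMM, and all 7 genes lay above 0. Relative to that median, the 7 genes lay between 0.83 (exg1) and 1.44 (bgs1) in the knockout and between 0.73 (gas1) and 1.42 (psu1) in WT.

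Gene length moved with this ratio. Across 4896 protein-coding genes with a length, the log2 ratio of labelled 5 to steady state had Pearson's r of 0.63 with log2 gene length in the knockout and 0.57 in WT, as a description across genes that share libraries. The 4 synthase genes are long, at 6443 bases (bgs1), 6962 (bgs3), 7794 (bgs4) and 8667 (ags1). The 57 other genes of at least 6000 bases had a median of 0.84 in the knockout (quartiles 0.60 and 1.02) and 0.73 in WT (quartiles 0.47 and 0.83), and 63.2% and 52.6% of them were called higher in knockout and WT. In the knockout bgs1, bgs3, bgs4 and ags1 lay at or above the upper quartile of that class, as they did in WT. The genes gas1 (2162 bases), exg1 (1964) and psu1 (2030) lay among the 1751 other genes of 1500 to 2500 bases, whose median was 0.23 in the knockout (quartiles −0.13 and 0.51) and 0.21 in WT (quartiles −0.19 and 0.48), and all 3 lay above the upper quartile. The part of length in the result was not tested.

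The next comparison asked how the shares of the 7 transcripts in labelled RNA differed between time point 125 and time point 5. Without the culture block 0 of 7 passed in the knockout by edgeR, where 2.18% of all genes were called lower and 8.48% in either direction, and none of the 7 had an unadjusted p under 0.05 or was called by DESeq2. In WT psu1 fell to 0.48-fold, the 1 call among the 7, where 2.08% of all genes were called lower and 8.76% in either direction. The libraries of the time points overlapped for all 7 genes in the knockout, where 15.4% of all genes lay wholly lower at 125, and did so for all but gas1 and psu1 in WT, where 10.7% did. With culture as a block, bgs1, bgs3 and gas1 fell in both genotypes, and psu1 in WT as well, which makes 3 of 7 in the knockout and 4 of 7 in WT, against 19.7% and 19.8% of all genes called lower with the block. The other 3 genes, bgs4, ags1 and exg1, passed in neither.

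**Figure D2:**
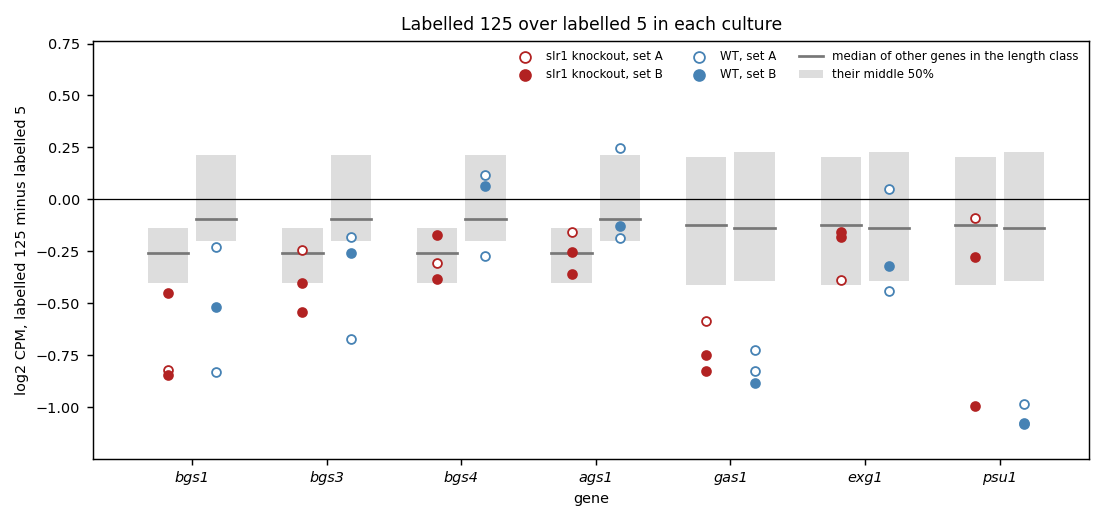
Log2 ratio of labelled 125 to labelled 5 for each of the 7 wall genes. Each point is 1 culture, with knockout cultures left of WT cultures, and all 6 points lie below 0 for bgs1, bgs3, gas1 and psu1. Open and filled points are cultures of sets A and B, and the grey line and box are the median and quartiles of the other genes in the same class of gene length.

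For bgs1, the levels at labelled 125 were 274, 583 and 241 CPM in the knockout and 484, 418 and 313 CPM in WT, lower than at labelled 5 in 6 of 6 cultures. The means along the time points 5, 20, 50, 105 and 125 were 613, 484, 447, 377 and 366 CPM in the knockout, and 599, 439.8, 429, 458 and 405 CPM in WT. In the block fit the log2 fold change of 125 over 5 was −0.71 in the knockout (adjusted p = 2.85e-04) and −0.54 in WT (adjusted p = 0.00318). The WT call of bgs1 was lost in the block fit without WT culture 1 (adjusted p = 0.123).

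For bgs3, the levels at labelled 125 were 345, 646 and 360.3 CPM in the knockout and 416, 576 and 331 CPM in WT, also lower than at labelled 5 in all 6 cultures. The block fit gave −0.40 in the knockout (adjusted p = 0.0127) and −0.38 in WT (adjusted p = 0.0136). The WT call was lost without WT culture 1 (adjusted p = 0.269), and the knockout call was lost in 2 of the fits without 1 culture, with a highest adjusted p of 0.0885.

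The gene gas1 showed the same order in every culture. At labelled 125 it had 1149, 2921 and 1279 CPM in the knockout and 2004, 1675 and 1317 CPM in WT, all below the value of the same culture at labelled 5, and in WT the 2 time points did not overlap. Its means along the time points were 2859.6, 2941, 2434, 1787 and 1783 CPM in the knockout and 2916, 2609, 2194, 1795 and 1665 CPM in WT. The block fit gave −0.72 in the knockout (adjusted p = 3.90e-04) and −0.81 in WT (adjusted p = 8.53e-05), and 4 of 6 cultures still had more gas1 at labelled 125 than at steady state.

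The gene psu1 had 394, 835 and 746 CPM at labelled 125 in the knockout and 609, 437 and 742 CPM in WT. The WT libraries at 125 lay below all WT libraries at 5, and the knockout libraries overlapped between the time points. In WT the log2 fold change was −1.05 (SE 0.31, adjusted p = 0.0331) without the block and −1.05 (adjusted p = 4.97e-05) with it. In the knockout it was −0.38 without the block and −0.45 with it (adjusted p = 0.0538). The difference between the genotypes, 0.66 (SE 0.44), did not pass (unadjusted p = 0.141, adjusted p = 1 by edgeR). In the block fit it was 0.59 (SE 0.26, unadjusted p = 0.0303, adjusted p = 0.999), so the fall was not shown to differ between them. Without the block the WT call was lost without WT culture 1 (adjusted p = 0.144), WT culture 2 (0.136), WT culture 3 (0.188) or knockout culture 3 (0.0627).

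The remaining genes, bgs4, ags1 and exg1, were not called between these time points with TMM scaling. The bgs4 means along the time points were 1231, 1191, 1230.2, 1007 and 1009.6 CPM in the knockout and 1029, 993, 1109.8, 1134 and 1015 CPM in WT. Those of ags1 were 768, 687, 714, 643 and 648 CPM in the knockout and 647, 593, 611, 678 and 646 CPM in WT. The log2 fold changes of 125 over 5 were −0.29 (bgs4) and −0.25 (ags1) in the knockout and −0.02 and −0.00 in WT, none of which passed. The exg1 means were 961, 783, 852, 804 and 810.0 CPM in the knockout and 883, 863, 983, 712 and 722 CPM in WT, and exg1 was lower at 125 than at 5 in 5 of 6 cultures. Its log2 fold change of 125 over 5 was −0.25 in the knockout and −0.29 in WT.

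These directions are relative to total S. pombe counts. When libraries were scaled to human counts, the median of all genes in 125 over 5 moved to 0.64 in the knockout and 0.95 in WT, against −0.08 and −0.08 with TMM. All 7 genes were then above 0 in the knockout, and all but psu1 (−0.11) in WT. Relative to that median, bgs1 lay at −0.53 and −0.39, gas1 at −0.49 and −0.65, bgs3 at −0.21 and −0.23 and psu1 at −0.31 and −1.07 in knockout and WT, whereas bgs4 lay at −0.14 and 0.06. With the human scaling and the block together, bgs4 and ags1 rose in WT, by 1.03 (adjusted p = 0.0199) and 1.04 (adjusted p = 0.0184) on the log2 scale, near the median of all genes in that fit (0.98). These are 2 of 7, where 58.4% of all genes were called higher, and in the knockout it was 0 of 7, where 26.1% were. The log2 ratio of 125 over 5 also had Pearson's r of −0.42 with log2 gene length in the knockout and −0.37 in WT. The other genes of at least 6000 bases had a median of −0.26 in the knockout and −0.09 in WT, and bgs1 (−0.74 and −0.57) and bgs3 (−0.37 and −0.37) lay below it in both genotypes. In the knockout bgs4 (−0.29) lay just below and ags1 (−0.25) just above it, and in WT bgs4 (−0.02) and ags1 (−0.00) lay above it. Those of 1500 to 2500 bases had a median of −0.13 and −0.14 in knockout and WT, and gas1 (−0.68 and −0.81), psu1 (−0.38 and −1.05) and exg1 (−0.25 and −0.29) lay below it in both. The part of length in these values was not tested.

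Steady state had the lowest mean of the 6 fractions for every one of the 7 genes in both genotypes. The highest mean was at labelled 5 for bgs1 and bgs3 in both genotypes and for ags1, bgs4 and exg1 in the knockout. In WT it was at labelled 105 for ags1 (678 CPM) and bgs4 (1134 CPM) and at labelled 50 for exg1 (983 CPM). For psu1 it was at labelled 20 in the knockout (941 CPM) and at labelled 5 in WT (1233 CPM). For gas1 it was at labelled 20 in the knockout (2941 CPM) and at labelled 5 in WT (2916 CPM). These tops were often not separated from their neighbours, as with bgs4 in the knockout at labelled 5 and labelled 50 (1231 and 1230.2 CPM).

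**Figure D3:**
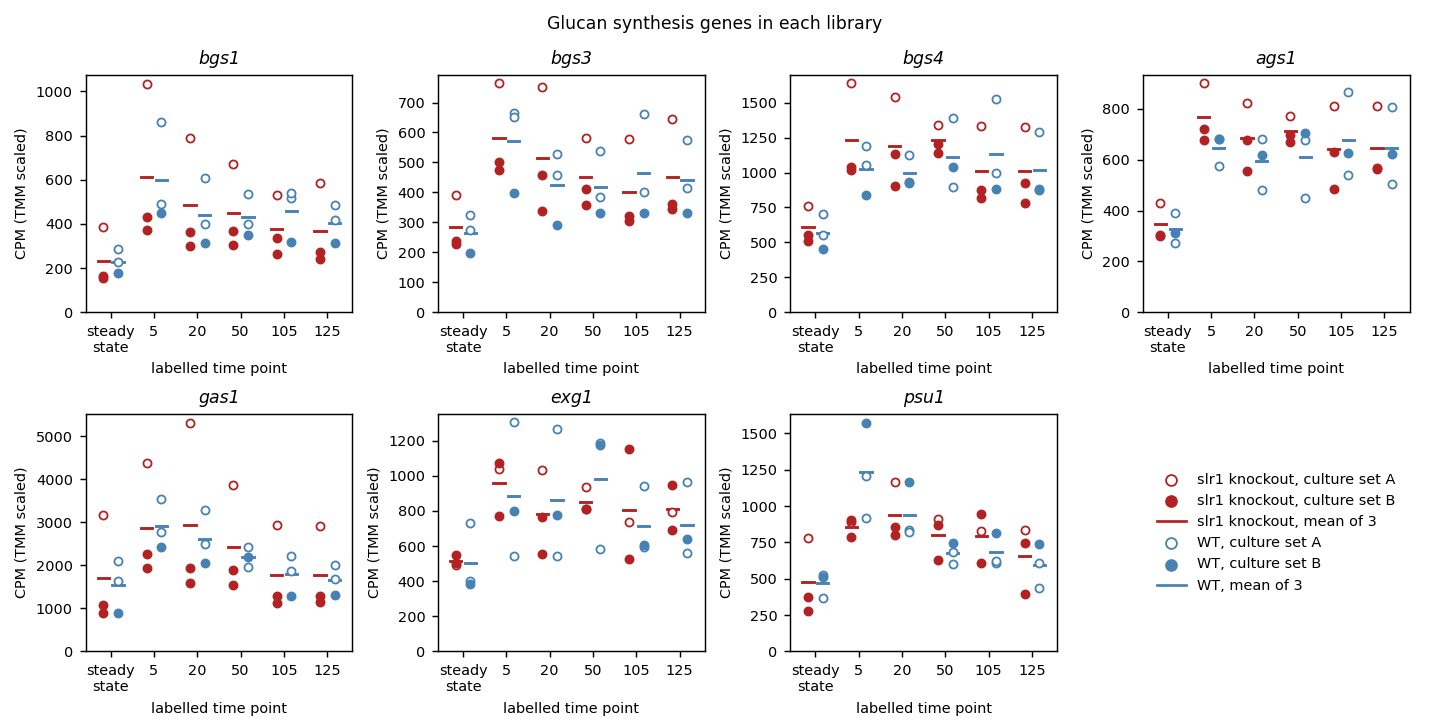
Levels of the 7 wall genes in CPM by fraction, steady state first and then the labelled time points in order. Points are single cultures (open for set A, filled for set B) and short lines are means of 3 for the knockout, left, and WT, and steady state has the lowest mean in each panel.

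Then the genotypes were compared in each fraction, the question that the series is built around. Not 1 of the 7 wall genes passed in any of the 6 fractions by edgeR, and in the main fit none had an unadjusted p under 0.05. With a block on culture number 1 did, psu1 at labelled 5. Across all genes 1 gene, slr1, was called in each fraction in the main fit, which is 0.0186% of the genes tested at steady state and 0.0172% at each labelled time point. DESeq2 called 0 of the 7 in every fraction and 1 or 2 genes in all. All fitted log2 fold changes of the 7 genes lay between −0.53 and 0.30. Between genotypes these are shares of bulk RNA, so a different mix of cells and a different level per cell cannot be told apart.

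**Figure D4:**
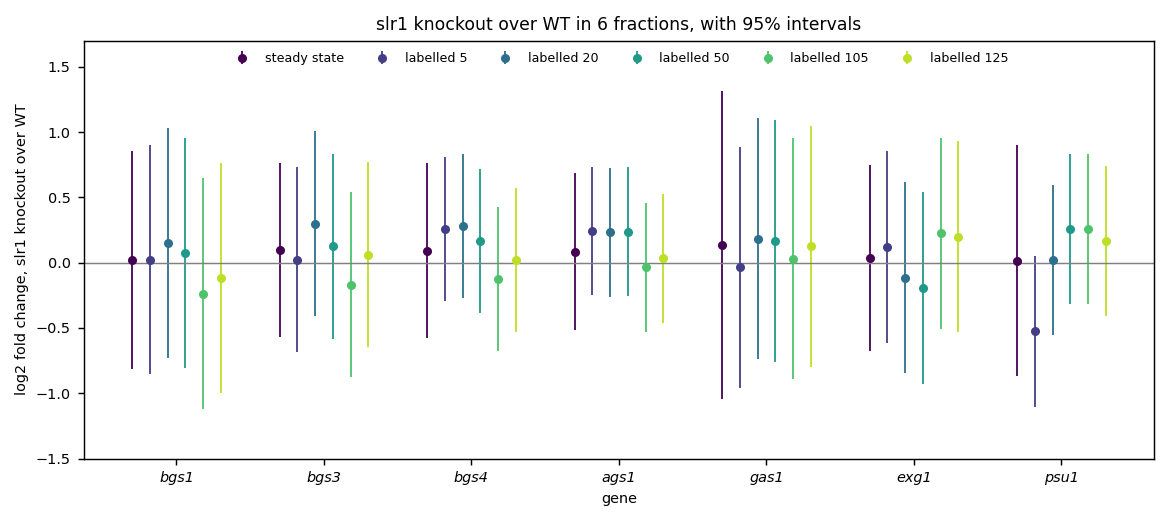
Log2 fold change of slr1 knockout over WT for the 7 wall genes in each of the 6 fractions. Points are edgeR estimates and bars are 95% intervals, and every interval includes 0. Bars of the labelled fractions treat libraries of the same culture as independent and can be too narrow.

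At steady state the estimates ran from 0.01 (psu1) to 0.14 (gas1). Their signs rested on single cultures and on the scaling: without knockout culture 2, 1 of 7 was above 0 and gas1 stood at −0.63, without WT culture 3, 2 of 7 were above 0, and with human scaling 0 of 7 were. All 7 stayed above 0 without knockout culture 1 or 3. With the set of cultures as a covariate all 7 did too, with a median of 0.22 against 0.09 in the main fit. Set B holds knockout cultures 1 and 3 but only culture 3 of WT, so genotype and set are partly confounded. The intervals were wide: for gas1 the 95% interval ran from −1.04 to 1.32 and for ags1, the tightest, from −0.52 to 0.69. A p that misses the threshold does not show equal levels, and any change within these intervals is compatible with the data from 3 cultures per genotype. The intervals are not limits of detection, because calls also required adjustment over all genes tested. In the labelled fractions ags1 again had the tightest intervals, for example −0.25 to 0.74 at labelled 5 and −0.46 to 0.53 at labelled 125. The fit of the labelled fractions treated 30 libraries from 6 cultures as independent, although libraries of the same culture varied together. Its intervals can therefore be too narrow.

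The estimate farthest from 0 was that of psu1 at labelled 5. It had 786, 889 and 904 CPM in the knockout, against 1206, 921 and 1571 CPM in WT, and these libraries did not overlap, as was true in either direction for 4.83% of all genes. The log2 fold change was −0.53 (SE 0.28, 95% interval −1.10 to 0.05), with an unadjusted p of 0.0714 and an adjusted p of 1. In edgeR with a block on culture number, the labelled 5 value was −0.51 (SE 0.21, unadjusted p = 0.025, adjusted p = 0.999). At labelled 20 the psu1 libraries overlapped, with 799.5, 1164 and 859.5 CPM in the knockout and 839, 821 and 1165 CPM in WT. No other pair of groups failed to overlap for any of the 7 genes, against 2.42% of all genes at steady state, 7.2% at labelled 20, 5.15% at labelled 50, 2.2% at labelled 105 and 2.18% at labelled 125.

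Whether the rise at labelled 5 differed by genotype was also tested, and 0 of 7 passed, as did 0 of 5823 genes by edgeR, of which 19 had an unadjusted p under 0.05. The estimates ran from −0.55 for psu1 (SE 0.44) to 0.16 for bgs4 (SE 0.39). With human scaling all 7 differences were above 0, psu1 at 0.23, and the median of all genes in this difference was 0.75, against which psu1 lay at −0.52. The same test for 125 over 5 called 0 of 7 and 0 of 5823, of which 17 had an unadjusted p under 0.05, with psu1 again farthest from 0 at 0.66. DESeq2 called 0 of 5823 in both.

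Cultures of one genotype differed for some of these genes. At steady state the highest gas1 level in the knockout (culture 2) was 3.49-fold the lowest (culture 1), and in WT the highest (culture 1) was 2.34-fold the lowest (culture 3). For psu1 these ratios were 2.79-fold in the knockout and 1.43-fold in WT, and for bgs1 2.53-fold and 1.61-fold. For ags1 they were 1.43-fold and 1.44-fold. With genotype in the model, the log2 fold change of set B over set A was −0.89 for bgs1 (adjusted p = 0.0356) and −1.34 for gas1 (adjusted p = 0.0328), and 12.6% of all genes were called between the sets. The sets were defined from fly and human counts in these same libraries, so they are not groups of the study.

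A wider list of 35 other wall genes gave the surroundings of these 7, with 5 further glucan synthase genes, 12 genes for remodelling and hydrolysis, and 18 for regulators of synthesis and wall integrity. At labelled 5 against steady state 12 of 35 were higher and 1 lower in the knockout, where 13.5% of all genes were higher and 13.2% lower. In WT 12 were higher and 1 lower, where 10.6% and 11.2% of all genes were. Leaving out knockout culture 1 or 3 left 3 higher in the knockout, and leaving out WT culture 1, 2 or 3 left 3, 6 or 3 higher in WT. Over all genes, calls in either direction with 1 culture left out ran from 487 to 1693 in the knockout and from 476 to 1381 in WT. The list's median log2 fold change was 0.67 in the knockout and 0.58 in WT, beside 0.04 and 0.06 over all genes, which were not matched for length. The list runs from 1226 bases (cwg2) to 8413 (mok11), and bgs2 (6069), mok13 (7464) and mok12 (8094) are also long. This ratio moved with gene length, and the part of length in the list's values was not tested. With the block 24 were higher and 3 lower in the knockout, where 29.6% of all genes were higher and 24.4% lower. In WT 23 were higher and 4 lower with it, where 28.5% and 24.4% of all genes were. Scaled to human counts without the block, 0 were higher in either genotype and the list's median was 0.81 in the knockout and −0.09 in WT, which is 0.71 and 0.52 above the median of all genes under that scaling. By group, the knockout had 2 of 5 synthases, 3 of 12 remodelling genes and 7 of 18 regulators higher, and WT had 3, 2 and 7.

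Among the genes called higher in this list was gas5, for another beta-glucanosyltransferase, at 1.38 in the knockout (adjusted p = 0.00477) and 1.23 in WT (adjusted p = 0.0122). The sensor gene wsc1, which encodes a wall stress receptor, was at 1.28 (adjusted p = 0.0102) and 1.19 (adjusted p = 0.0171) in knockout and WT. The glucanase gene exg2 was at 1.29 in the knockout (adjusted p = 0.0231), and rgf3, for an exchange factor of Rho1, was at 1.09 in WT (adjusted p = 9.83e-05). The 1 gene called lower in both genotypes was rho1 itself, whose GTPase activates beta-glucan synthase, at −0.88 in the knockout (adjusted p = 0.0239) and −0.89 in WT (adjusted p = 0.0273). These are the same direction in both genotypes. By edgeR 0 genes of the list were called between the genotypes in any fraction, with 1 unadjusted p under 0.05 in the main fit, at labelled 20.

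At 125 against 5, 0 of the 35 passed by edgeR in either genotype without the block. By edgeR an unadjusted p under 0.05 was found for 3 in the knockout and 4 in WT, against 1325 and 1337 of all 5823 genes. DESeq2 called 1 in the knockout, rho1 (adjusted p = 0.0145), and 0 in WT. With the block 4 were higher and 10 lower in the knockout by edgeR, where 17.5% of all genes were higher and 19.7% lower. In WT 5 were higher and 10 lower, where 20.2% and 19.8% of all genes were. Leaving out 1 culture in the block fit moved these counts: without WT culture 1 they were 3 higher and 2 lower in WT, without WT culture 2 they were 3 and 6, and without WT culture 3 they were 2 and 10. In the knockout they were 1 and 8 without knockout culture 1, 2 and 10 without knockout culture 2, and 3 and 6 without knockout culture 3. In the block fit rho1 rose by 0.87 in the knockout (adjusted p = 2.26e-06) and by 0.59 in WT (adjusted p = 3.80e-04), the opposite direction to bgs1, bgs3 and gas1. With human scaling, relative to the median of all genes, rho1 lay at 0.94 in the knockout and 0.68 in WT.

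Pearson's r over the 12 group means was used to find the gene whose level ran most like each of the 7. Only genes outside the 7, with a symbol and of sufficient level, were searched. The closest was pkd2 for bgs1 (r = 0.98), msp1 for bgs3 (0.98), cop1 for bgs4 (0.98), ptr1 for ags1 (0.98), mus81 for gas1 (0.97), gas5 for exg1 (0.93) and pas1 for psu1 (0.96). Within the 7, bgs4 and ags1 had r = 0.981 with each other, above the 0.979 of cop1 with bgs4. These are descriptions over 12 means that share cultures and library scaling. In the ASM294v3 annotation 6 of the 7 genes are overlapped by another annotated gene, with psu1 overlapped by none, and since the strand setting of the counting is not given, reads of such overlapping genes cannot be told apart.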

How the data were processed

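Per the submitters' processing notes, the authors used HTSeq 0.6.1p2, STAR 2.5.2a, R 3.5.2 and Trimmomatic 0.36. The sources used here do not give the genome build, annotation or strand setting. The deposited files hold raw read counts per gene, 1 file per library. The counter's summary lines (23.5 to 56.6% of a steady-state library, 10.4 to 19.6% of a labelled one) and the human and fly counts stayed out of library sizes and tests. From the authors' counts, CPM and log2 fold changes were computed here with edgeR 4.0.16 in R 4.3.3: TMM scaling, filterByExpr with a minimum count of 10, the quasi-likelihood test, and Benjamini-Hochberg adjustment at 0.05 over 5371 (6 steady-state libraries), 5812 (30 labelled) or 5823 genes (all 36, for contrasts between fractions). DESeq2 1.42.0 was an alternative. The fit without a block was also run on simulated counts, drawn independently for each library. Those counts held no correlation between libraries of a culture, so that run cannot speak to the culture pairing.

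Libraries of 1 culture are portions of the same cells per the labels' protocol. Their deviations from the group means correlated at 0.357 to 0.809, over 0.1 in 12 of 12 pairs, so culture pairs them, and the block results stand beside the others. The genes and the wider list were chosen with earlier results of these data known. Named beyond the 7 genes are slr1, the gene most like each of the 7, and up to 3 wider-list genes per direction and comparison with the largest called change. Likeness was taken over 12 group means, among genes outside the 7 with a symbol and a mean log2 CPM of at least 3. In the 125 over 5 contrast rho1, not called without the block under the main settings, was named after its values were seen. Gene symbols and lengths were read from the ASM294v3 annotation, in which 6846 of the 7268 identifiers were found.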

Additional observations from a re-analysis of the deposited data

How the results depend on the processing

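Knockout over WT, and the differences between genotypes in both contrasts, gave 0 of the 7 genes in every alternative run. For labelled 5 over steady state in the knockout, 5 genes passed, against 0 with human scaling, 0 within set A (1 knockout culture, assumed to vary like the WT cultures) and 1 to 6 when 1 culture was left out. In WT 5 passed, against 0 with human scaling, 0 with human scaling and the block, 2 with only the groups compared, 1 within set A and 0 to 6 when 1 culture was left out. For labelled 125 over labelled 5 in the knockout, 0 passed, against 3 with the replicate block, 1 with the set of cultures as a covariate and 2 within set B, and 0 with each culture left out. In WT 1 passed, against 4 with the replicate block, 2 with the set covariate, 2 with human scaling and the block, and 0 with human scaling, with only the groups compared, within set A and within set B (1 WT culture, assumed to vary like the knockout cultures), and 0 to 1 with 1 culture left out. With the block and each culture left out, 2 to 4 passed in each genotype for 125 over 5, and 7 for 5 over steady state. The values of bgs4 and ags1 in WT turned from below 0 to called at 1.03 and 1.04 for 125 over 5 with human scaling and the block together; neither was called with human scaling alone or the block alone, and the cause was not tested. Knockout and WT libraries of equal number correlated at −0.531 to 0.612, over 0.1 in 8 of 18 pairs. At steady state the correlation was −0.531 for number 1, 0.085 for number 2 and 0.607 for number 3. Cultures of number 2 are both of set A and those of number 3 both of set B, whereas those of number 1 differ in set. The number was therefore not an even pairing, and a block on it left 0 of 7 called between the genotypes. Each value of an alternative was set beside its value in the main fit, and sign changes were counted where neither of these fits called it. They numbered 37 of 308 values for 125 over 5, 0 of 308 for 5 over steady state and 54 of 308 for the differences between genotypes. For knockout over WT they numbered 115 of 623. These totals include values that were called. The within-set fits, length classes, and block fits with human scaling or a culture left out were chosen after seeing the data. Leaving aside the fits within sets and the fits without the block that drop a culture, counts of all genes called for 125 over 5 were 494 in the knockout, against 412 to 2243 over the alternatives, and 510 in WT, against 119 to 3398; for 5 over steady state they were 1554, against 215 to 3223, and 1268, against 487 to 3249. With 1 culture left out and no block, calls over all genes for 125 over 5 were 104 to 606 in the knockout and 196 to 605 in WT. For 5 over steady state they were 487 to 1693 and 476 to 1381. Depth limits the steady-state libraries most, where bgs1 had as few as 150 counts.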
